A study of Homo sapiens with 12 samples.

Results

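Transcription elongation and pause release factors were followed in HK-2 cells, an established line of human kidney proximal tubule epithelium, as 37 genes of the 35238 in the deposited table. The genes were picked by name for the complexes they belong to, and the rule uses no measured value. They cover P-TEFb (CDK9, CCNT1, CCNT2), the 7SK complex (HEXIM1, HEXIM2, LARP7, MEPCE), NELF (NELFA, NELFB, NELFCD, NELFE), DSIF with SPT6 (SUPT4H1, SUPT5H, SUPT6H), FACT (SUPT16H, SSRP1), the super elongation complex (ELL, ELL2, ELL3, AFF1, AFF4, MLLT1, MLLT3), the PAF complex (PAF1, CTR9, LEO1, CDC73, RTF1), the CDK7 kinase (CDK7, CCNH, MNAT1), CDK12 and CDK13 with their cyclin CCNK, TFIIS (TCEA1, TCEA2) and the bromodomain protein BRD2. All 37 were measured at 1 CPM (counts of a gene per 1000000 counts of its library) or more in at least 3 of the 6 libraries of every comparison, so none was lost to the filter on low values.

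Cells received a scrambled siRNA (SCR) or an siRNA against POLR2A (siB), both at 10 nM, together with DMSO vehicle or 25 µM aristolochic acid I (AAI), and RNA was taken at 24 hours. Aristolochic acid I is a plant nephrotoxin that forms DNA adducts in tubule cells, and RPB1, the POLR2A product, is the catalytic core of RNA polymerase II. The 4 groups, SCR DMSO, SCR AAI, siB DMSO and siB AAI, had 3 libraries each, and every group was transfected with an siRNA. The knockdown was transient and came from 1 siRNA sequence in 1 cell line. The labels do not say whether the libraries of a group came from separate cultures, so the p-values measure the spread between these libraries, which may be technical.

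After RNA polymerase II starts a gene, DSIF and NELF hold it shortly past the start site. P-TEFb, the kinase CDK9 with cyclin T1 or T2, phosphorylates DSIF, NELF and the polymerase and so releases the pause, and the 7SK complex keeps a reserve of P-TEFb inactive through HEXIM proteins. Productive elongation then runs with DSIF, SPT6, the PAF complex, the super elongation complex, FACT, TFIIS and the later kinases CDK12 and CDK13. The study asked how tubule cells respond to DNA damage when POLR2A is reduced, and the genes described here encode the factors that act on that polymerase.

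POLR2A was measured first, as the check of the knockdown. With DMSO it read 258, 288 and 306 CPM in SCR cells against 138, 143 and 139 CPM in siB cells. With AAI it read 673, 719 and 729 CPM in SCR cells against 266, 220 and 210 CPM in siB cells. Every siB library lay below every SCR library of the same treatment, and the siB libraries in AAI overlapped the SCR libraries in DMSO or lay below them. The knockdown change was -1.61 (SE 0.15, adjusted p = 5.82e-04) on the log2(CPM + 1) scale under AAI and -1.01 (SE 0.13, adjusted p = 0.505) in DMSO. With AAI its level rose by 1.32 in SCR cells (SE 0.19, adjusted p = 0.0032) and by 0.72 in siB cells (SE 0.11, adjusted p = 6.00e-04). All changes given here are on that scale, with limma's standard errors and p-values adjusted over all genes tested. The addition of 1 to each CPM makes them understate the change of genes near 1 CPM.

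Recovered depth ran from 15844015 to 42805294 reads per library, and 3 reads, the limit that a count of 0 allows, came to between 0.0701 and 0.189 CPM, a limit that covers counting error only. SCR DMSO replicate 2 stood apart from the other libraries. It was the lowest of the 12 libraries for 16 of the 37 genes and for 34.1% of 15325 genes tested over all libraries. A single transcript, AC010970.2, took between 1887 and 105566 CPM, which lowers the CPM of everything else in the libraries where it is high. All 5 epithelial markers were at a mean of 1 CPM or more, but of 8 proximal tubule markers LRP2, CUBN, AQP1 and ANPEP were below it. Of 3 immune markers CD3E was at 0 in every library, while PTPRC and CD68 were at 1 CPM or more and the sum of the 3 ran from 60.1 to 98.1 CPM, both ends in SCR DMSO. The summed proximal tubule markers ran from 607 to 719 CPM in SCR DMSO, 372 to 632 in SCR AAI, 716 to 735 in siB DMSO and 375 to 524 in siB AAI. The summed fibroblast markers, of which COL1A1 and PDGFRB reached 1 CPM, stayed between 9.46 and 53.1 CPM over the 12 libraries, with COL1A2, COL3A1 and PDGFRA below it. The summed endothelial, podocyte and other tubule markers reached 5.62, 1.57 and 7.61 CPM at most. The part of these markers in the results was not tested. CPM are shares of a library, so fewer cells of a kind and less RNA per cell cannot be told apart.

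**Figure D1:**
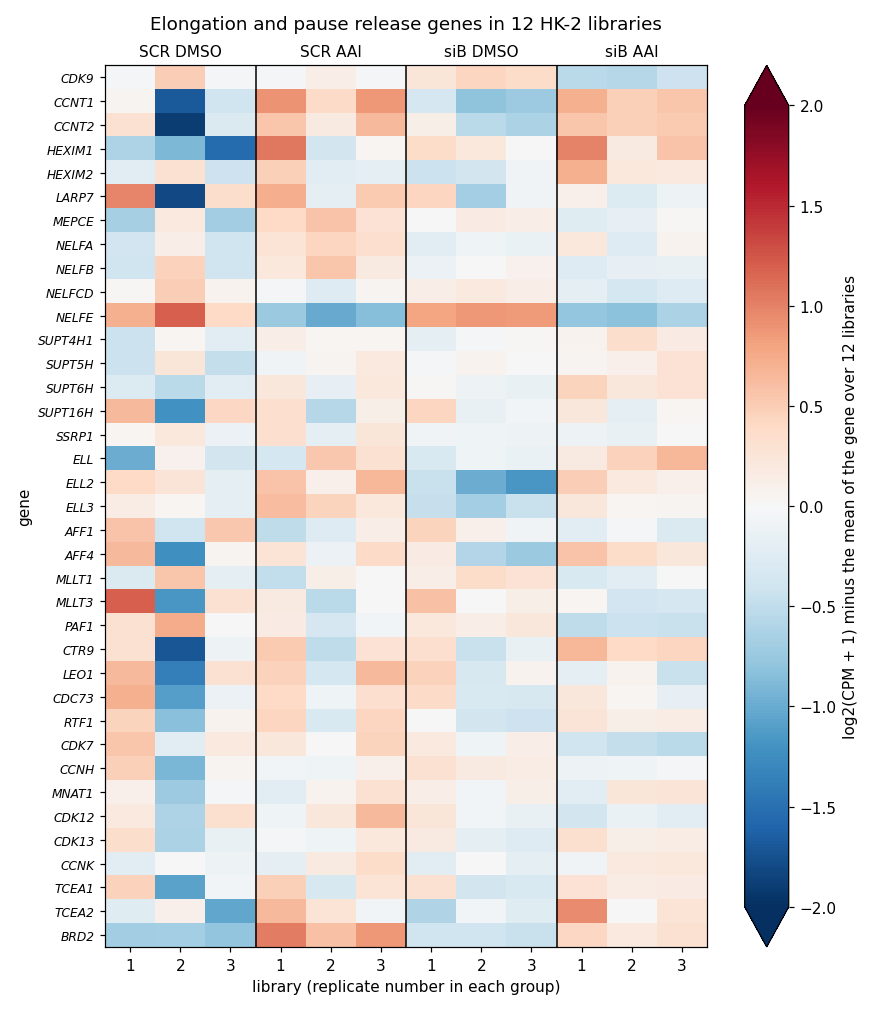
Level of each of the 37 genes in the 12 libraries, as log2(CPM + 1) minus the mean of that gene over all 12 (colour, from -2 to 2), with libraries in columns by group and replicate number and genes in rows by complex. NELFE is low in all 6 AAI libraries, BRD2 is high in them, and SCR DMSO replicate 2 is the lowest library for 16 genes.

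Levels per kilobase of merged exons, which allow genes to be set side by side, spanned a wide range. The group means of NELFB and BRD2 were the highest of the 37 in every group, but their order differed. NELFB stood at 57.7 CPM per kb in SCR DMSO and 59.5 in siB DMSO, above BRD2 at 38.5 and 47.6. With AAI BRD2 stood at 113 in SCR cells and 78.6 in siB cells, above NELFB at 75.0 and 52.3. Averaged over the 12 libraries ELL3 at 1.33, ELL2 at 1.74 and MLLT3 at 2.06 CPM per kb were the lowest, although MLLT3 was not among the lowest 3 in SCR DMSO. Within P-TEFb the kinase CDK9 was above cyclin T1 (CCNT1) per kb in DMSO, at 14.9 against 7.45 in SCR cells and 17.1 against 6.96 in siB cells. With AAI it was below, at 13.5 against 17.8 in SCR cells and 9.30 against 16.1 in siB cells, and cyclin T2 (CCNT2) ran from 3.44 to 6.52 over the 4 groups. HEXIM1, from 12.5 to 38.3 CPM per kb, was far above its paralog HEXIM2, from 2.79 to 4.74.

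The promoters of 6 genes are shown because these genes carry the main differences described below. They are the most strongly lowered gene (NELFE), the gene raised by AAI in both SCR and siB cells (BRD2), both partners of P-TEFb that diverged (CCNT1 and CDK9), the PAF1 gene, and HEXIM1, which had the highest knockdown change in DMSO. Each window runs from 250 bases before to 50 bases after the transcription start in RefSeq (GRCh38.p14), written 5′ to 3′ on the strand of the gene, with GC boxes (GGGCGG, read on both strands) in capitals. Promoters were matched for 34 of the 37 genes, and ELL2, CDC73 and TCEA1 were not matched. The windows are chr6:31958922-31959221 (minus strand) for NELFE, chr6:32968344-32968643 (plus) for BRD2, chr12:48716658-48716957 (minus) for CCNT1, chr9:127785784-127786083 (plus) for CDK9, chr19:39391057-39391356 (minus) for PAF1 and chr17:45148225-45148524 (plus) for HEXIM1.
NELFE: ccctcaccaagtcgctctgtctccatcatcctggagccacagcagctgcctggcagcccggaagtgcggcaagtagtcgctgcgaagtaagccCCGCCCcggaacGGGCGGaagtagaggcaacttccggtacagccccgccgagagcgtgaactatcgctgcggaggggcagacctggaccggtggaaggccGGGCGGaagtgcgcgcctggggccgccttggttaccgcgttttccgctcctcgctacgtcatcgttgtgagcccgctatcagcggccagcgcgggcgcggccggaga
BRD2: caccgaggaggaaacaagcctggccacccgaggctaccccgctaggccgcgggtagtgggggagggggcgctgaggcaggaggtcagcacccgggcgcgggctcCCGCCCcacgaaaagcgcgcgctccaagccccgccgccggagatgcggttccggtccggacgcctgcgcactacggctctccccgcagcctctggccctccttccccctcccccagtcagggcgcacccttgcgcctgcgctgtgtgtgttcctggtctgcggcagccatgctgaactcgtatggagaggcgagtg
CCNT1: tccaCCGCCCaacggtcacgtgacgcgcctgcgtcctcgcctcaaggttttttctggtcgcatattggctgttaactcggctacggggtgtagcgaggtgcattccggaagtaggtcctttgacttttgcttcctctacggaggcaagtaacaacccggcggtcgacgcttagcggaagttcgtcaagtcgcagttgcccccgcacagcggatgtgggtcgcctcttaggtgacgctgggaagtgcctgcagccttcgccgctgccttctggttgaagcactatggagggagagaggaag
CDK9: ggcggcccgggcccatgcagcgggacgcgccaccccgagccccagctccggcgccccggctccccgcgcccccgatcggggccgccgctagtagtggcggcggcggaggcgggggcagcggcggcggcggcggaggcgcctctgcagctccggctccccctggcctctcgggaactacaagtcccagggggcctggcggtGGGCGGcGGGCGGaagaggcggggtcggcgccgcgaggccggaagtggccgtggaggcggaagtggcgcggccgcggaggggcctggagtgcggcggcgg
PAF1: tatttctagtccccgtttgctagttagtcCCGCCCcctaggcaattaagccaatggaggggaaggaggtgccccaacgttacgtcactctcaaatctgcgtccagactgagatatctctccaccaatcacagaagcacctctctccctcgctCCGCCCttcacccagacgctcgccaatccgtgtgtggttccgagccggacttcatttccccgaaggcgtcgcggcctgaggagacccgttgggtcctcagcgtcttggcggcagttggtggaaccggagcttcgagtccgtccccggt
HEXIM1: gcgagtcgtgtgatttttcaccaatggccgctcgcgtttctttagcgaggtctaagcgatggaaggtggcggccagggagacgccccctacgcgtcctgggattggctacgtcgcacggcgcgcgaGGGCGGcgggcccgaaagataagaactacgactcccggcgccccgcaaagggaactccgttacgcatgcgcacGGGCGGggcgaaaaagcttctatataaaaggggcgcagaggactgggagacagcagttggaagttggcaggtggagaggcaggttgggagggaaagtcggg
GC boxes occurred in 27 of the 34 matched promoters (79.4%), against 44.9% of 34796 promoters of the same length. That set is larger than the 15325 genes tested over all libraries, and the share among promoters of genes at like levels was not counted. The TATA box letters TATAAA occurred in 1 of the 34 (2.94%), that of HEXIM1, against 11.6% of all promoters, and CCAAT occurred in 11 (32.4%) against 34.6%. The AP-1 letters TGACTCA occurred in none, against 4.96% of all promoters, and the CRE letters TGACGTCA in 1, that of LARP7, against 1.84%. All of these were read on both strands. Both NELFE, with 3 GC boxes, and BRD2, with 1, had GC boxes and no TATA letters, and their levels went opposite ways with AAI. A match of letters is a description of the window and not a bound site.

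AAI in SCR cells asked how the factors stood after DNA damage without the knockdown. Over all 6 libraries 2 of the 37 genes passed an adjusted p of 0.05, BRD2 upward and NELFE downward, and both changed more than 2-fold. Of 14228 genes tested 8.98% were raised and 3.36% lowered (7.73% and 2.73% with the 2-fold limit), so 1 gene each way of 37 (2.7%) was a smaller share than in the table at large for raised genes and about the same for lowered ones. By sign alone 30 of the 37 were higher and 7 lower, with a median change of 0.30 against 0.18 over all genes tested. These values rested in large part on SCR DMSO replicate 2, without which 21 were higher and 16 lower, with a median of 0.06 against 0.06 over all genes. Scaling by median-ratio size factors moved the median of all genes from 0.18 to 0.02 and that of the 37 to 0.12, with 24 higher and 13 lower, and it changed the split of calls over all genes from 1277 raised and 478 lowered to 1105 and 760.

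Non-overlap of the 3 AAI and 3 DMSO libraries in SCR cells was seen upward for 7 of the 37 genes (18.9%, against 22.2% of all genes tested) and downward for 1 (2.7%, against 11.5%). Before adjustment 6 of the 37 genes, and 3841 of the 14228 genes tested, had p under 0.05. The count of raised genes rested in part on single libraries. Without SCR DMSO replicate 2 it was 7 (BRD2, CCNT1, HEXIM1, MEPCE, NELFA, NELFB, TCEA2), and AFF1 joined NELFE among the lowered, against 13.5% raised and 8.70% lowered of all genes in that fit. Without SCR DMSO replicate 1 it was 2 (BRD2 and CCNT1), against 8.81% of all genes. With the replicate number as a block, which the rule on replicate numbers given below allowed, 4 genes were raised: BRD2, and CCNT1 (adjusted p = 0.0091), HEXIM1 (0.0135) and MEPCE (0.0306). In that fit 14.7% of all genes were raised.

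AAI in siB cells asked the same with POLR2A knocked down, in 6 libraries that the SCR comparison does not use. There 12 of the 37 genes were raised (AFF4, BRD2, CCNT1, CCNT2, CTR9, ELL, ELL2, ELL3, HEXIM2, RTF1, SUPT6H and TCEA2) and 6 were lowered (CDK7, CDK9, MLLT1, NELFCD, NELFE and PAF1). The raised share of 32.4% was near the 30.4% of 14928 genes tested, and the lowered share of 16.2% was under the 21.8% of all genes. Past the 2-fold limit were CCNT1 and ELL2 upward (13.9% of all genes) and NELFE downward (5.79%). Groups did not overlap for 13 genes upward (35.1%, against 34.2% of all genes) and 8 downward (21.6%, against 26.6%). By sign 23 were higher and 14 lower, or 20 and 17 with median-ratio size factors, under which AFF1, CCNH, CDK12 and MLLT3 also passed as lowered and 25.3% of all genes were lowered. The median change was 0.14 against 0.10 over all genes.

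The calls in siB cells depended on the spread used. With all 4 groups sharing 1 estimate of the spread, 4 genes remained raised (BRD2, CCNT1, ELL2, ELL3) and 3 lowered (CDK9, NELFE, PAF1), against 20.7% and 13.7% of all genes. Leaving out 1 library gave between 7 and 13 raised and between 5 and 7 lowered, against 23.6% to 34.8% and 16.8% to 22.7% of all genes. The fewest were raised without siB DMSO replicate 3, where AFF4, CTR9, RTF1, SUPT6H and TCEA2 missed the threshold (adjusted p between 0.0508 and 0.0973). CTR9, RTF1 and TCEA2 also missed it without other libraries, with adjusted p up to 0.103, 0.0856 and 0.0926. ELL3 (0.0581), HEXIM2 (0.0605) and MLLT1 (0.0625) missed it without siB DMSO replicate 2. BRD2, CCNT1, CCNT2, ELL, ELL2, CDK7, CDK9, NELFCD, NELFE and PAF1 stayed called without any 1 library.

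**Figure D2:**
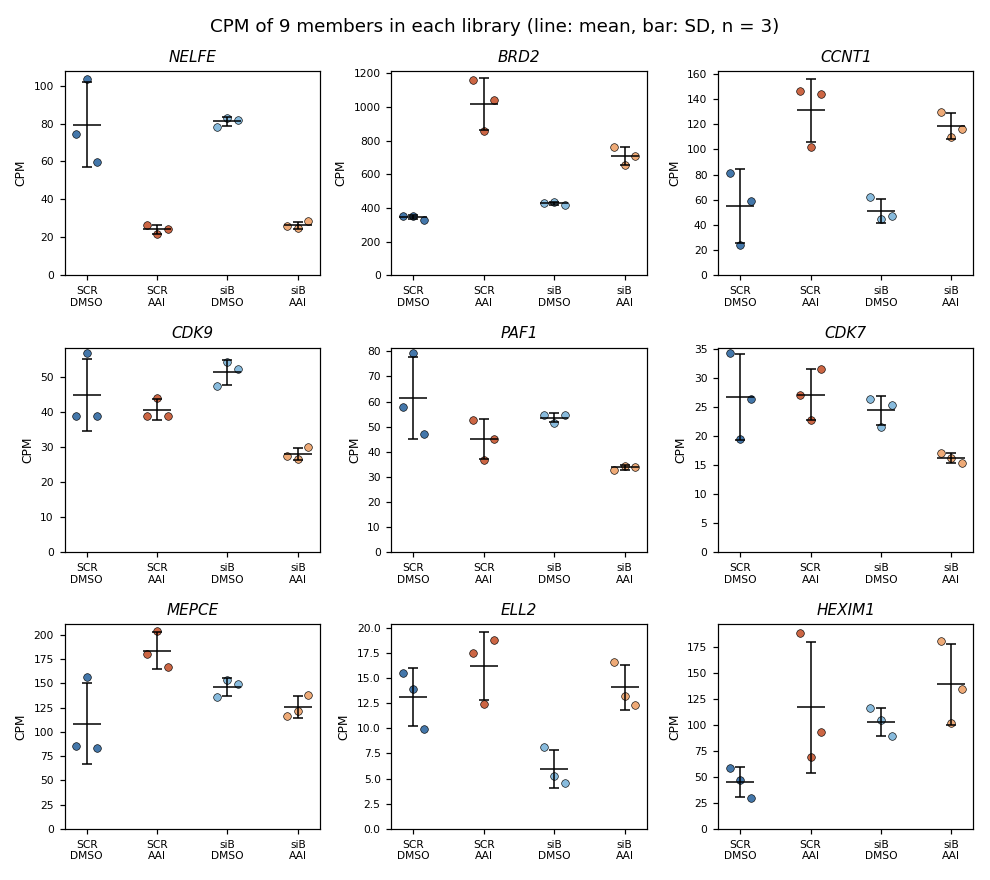
CPM of 9 of the genes in each library, by group, with every library as a point, the group mean as a line and the SD as a bar (n = 3), on linear axes from 0. NELFE is lower and BRD2 and CCNT1 are higher in both AAI groups, CDK9, PAF1 and CDK7 are lowest in siB AAI, and HEXIM1 and MEPCE spread widely in single groups.

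NELF, the complex that holds the paused polymerase, held the most strongly lowered of the 37 genes. NELFE, its RNA-binding subunit, lies at chromosome 6, 31952087 to 31959038, on the minus strand (hg38, GENCODE 44). It read 74.5, 104 and 59.6 CPM in the SCR DMSO group and 26.5, 21.9 and 24.5 CPM with AAI. With knockdown it read 78.3, 83.1 and 82.0 CPM in DMSO and 25.8, 25.1 and 28.5 CPM in AAI. All 6 AAI libraries lay below all 6 DMSO libraries, and the AAI levels were alike in SCR and siB cells. With AAI, NELFE fell by 1.63 in SCR cells (SE 0.26, adjusted p = 0.0056) and by 1.58 in siB cells (SE 0.11, adjusted p = 7.11e-06). The difference between these changes was 0.05 (95% interval -0.53 to 0.63), and knockdown itself gave 0.12 (SE 0.17) under AAI and 0.07 (SE 0.22) in DMSO.

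The other NELF subunits did not follow NELFE. NELFA ranged from 56.6 to 81.6 CPM in SCR DMSO and from 90.6 to 101 CPM in SCR AAI, and NELFB from 115 to 209 and from 172 to 223 CPM. In SCR cells their changes were 0.56 (adjusted p = 0.152) and 0.43 (adjusted p = 0.374), and NELFCD stood at -0.28 (adjusted p = 0.463). In siB cells NELFCD fell by 0.42 (SE 0.10, adjusted p = 0.0063), from between 119 and 125 CPM to between 84.9 and 95.7 CPM, with NELFA at 0.15 and NELFB at -0.18 short of the threshold. NELFCD overlaps CTSZ, a gene on the opposite strand at a mean of 710 CPM, and whether the counting used strand is not given in the sources used here, so its count may hold reads of CTSZ.

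A ratio taken within a library hardly depends on how libraries are scaled. NELFE relative to the mean of NELFA, NELFB and NELFCD was -0.43 ± 0.17 (SD, n = 3, log2) in SCR DMSO and -2.34 ± 0.18 in SCR AAI, and -0.40 ± 0.02 in siB DMSO and -1.87 ± 0.10 in siB AAI. The NELFE transcript thus stood lower against its partners in every AAI library, between -2.54 and -1.80, than in any DMSO library, between -0.61 and -0.27.

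The gene next to NELFE was read after the NELFE values were seen. SKIC2, a helicase of the RNA exosome pathway listed in the table as SKIV2L, starts 77 bp from NELFE on the opposite strand, inside the promoter window printed above. In SCR cells it read 64.5, 98.0 and 76.2 CPM with DMSO against 33.7, 35.3 and 33.9 CPM with AAI. In siB cells the values were 77.5, 86.8 and 88.5 CPM with DMSO against 36.7, 29.3 and 35.0 CPM with AAI. SKIC2 also lay lower in all 6 AAI libraries than in any DMSO library. Its level fell by 1.17 in SCR cells (SE 0.23, adjusted p = 0.0141) and by 1.30 in siB cells (SE 0.13, adjusted p = 4.07e-05). NELFE, SKIC2 and BRD2 all lie in the major histocompatibility region, of which hg38 also carries alternate sequences, and how reads shared with those were counted is not given in the sources used here.

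BRD2, a bromodomain protein that binds acetylated histones at active genes, was raised most of the 37 in SCR cells. It lies at chromosome 6, 32968594 to 32981505, on the plus strand. BRD2 read 353, 355 and 331 CPM in the SCR DMSO group and 1160, 856 and 1043 CPM with AAI. With knockdown it read 431, 434 and 420 CPM in DMSO and 760, 653 and 707 CPM in AAI. The 4 groups did not overlap with each other, in the rising order SCR DMSO, siB DMSO, siB AAI and SCR AAI. With AAI, BRD2 rose by 1.55 in SCR cells (SE 0.20, adjusted p = 0.0022) and by 0.72 in siB cells (SE 0.10, adjusted p = 2.46e-04).

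Knockdown placed BRD2 on opposite sides in the 2 treatments. Its knockdown change was 0.31 (SE 0.12, adjusted p = 1) in DMSO, with every siB library above every SCR library, and -0.52 (SE 0.17, adjusted p = 0.0728) under AAI, with every siB library below every SCR library. With the replicate block the change under AAI passed (adjusted p = 0.0020), in a fit whose p-values may be too small, as set out below. The interaction, which tests the difference between the 2 AAI changes, was -0.83 (SE 0.19, adjusted p = 0.0587) and was the lowest adjusted p of the 37 genes. It was 0.0268 without SCR DMSO replicate 2, 0.0421 without SCR AAI replicate 2 and 0.0492 with the replicate block. The gene HLA-DMA overlaps BRD2 on the opposite strand, at a mean of 11.2 CPM.

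P-TEFb, the kinase that releases the pause, had a catalytic subunit that fell and cyclins that rose in siB cells. CCNT1, cyclin T1, read 81.6, 23.8 and 59.3 CPM in the SCR DMSO group and 147, 102 and 144 CPM with AAI. It read 62.2, 44.5 and 47.1 CPM in the siB DMSO group and 130, 110 and 116 CPM with AAI. All AAI libraries were above all DMSO libraries, and SCR DMSO replicate 2 was the lowest of the 12. In siB cells CCNT1 rose by 1.21 (SE 0.14, adjusted p = 1.30e-04). In SCR cells the estimate was 1.39 (SE 0.43, adjusted p = 0.0767), which became 0.88 (adjusted p = 0.0228) without SCR DMSO replicate 2 and 1.75 (adjusted p = 0.0234) without SCR DMSO replicate 1.

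CCNT2, cyclin T2, read 50.5, 10.2 and 33.1 CPM in the SCR DMSO group and 60.7, 46.6 and 64.8 CPM with AAI, with overlap between the groups. In siB cells it read 44.4, 27.7 and 26.0 CPM in DMSO and 60.8, 57.6 and 59.3 CPM in AAI, without overlap. CCNT2 rose in siB cells by 0.88 (SE 0.19, adjusted p = 0.0036), and in SCR cells the change was 1.10 (SE 0.52, adjusted p = 0.220).

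CDK9, the kinase itself, read 38.7, 56.7 and 38.9 CPM in the SCR DMSO group and 38.8, 44 and 38.8 CPM with AAI, so AAI made no separation there (-0.12, SE 0.24, adjusted p = 0.779). In siB cells it read 47.3, 54.3 and 52.1 CPM in DMSO and 27.3, 26.7 and 29.8 CPM in AAI. These siB AAI libraries were the lowest of all 12. CDK9 fell by 0.85 (SE 0.12, adjusted p = 3.50e-04) with AAI in siB cells. The knockdown change under AAI was -0.52 (SE 0.16, adjusted p = 0.0652), which passed with the replicate block (adjusted p = 0.0053), a fit whose p-values may be too small. The interaction was -0.73 (adjusted p = 0.184), or -0.91 (adjusted p = 0.0203) without SCR DMSO replicate 2.

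The ratio of CCNT1 to CDK9 within a library was 0.14 ± 1.23 (log2) in SCR DMSO and 1.68 ± 0.40 in SCR AAI, and -0.01 ± 0.36 in siB DMSO and 2.08 ± 0.15 in siB AAI. It was higher in all 6 AAI libraries, from 1.22 to 2.25, than in any DMSO library, of which SCR DMSO replicate 1 was the highest at 1.08 and SCR DMSO replicate 2 the lowest at -1.25. For CCNT2 to CDK9 the means were -0.78, 0.49, -0.69 and 1.08 in the order SCR DMSO, SCR AAI, siB DMSO and siB AAI. In siB cells the cyclins thus stood higher against the kinase in AAI than in DMSO by both measures.

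**Figure D3:**
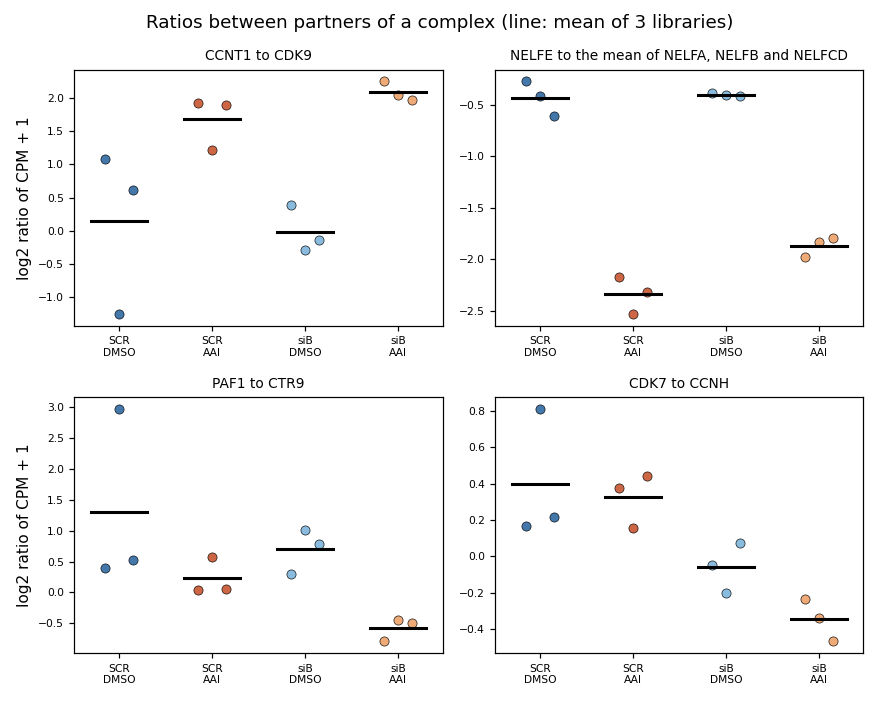
Log2 ratio of CPM (no 1 added, although the axis labels read CPM + 1) between partners of a complex within each library, by group. Each library is 1 point, with a line at the mean of 3. The vertical axes differ between panels and do not start at 0. CCNT1 to CDK9 is higher and NELFE to the other NELF subunits is lower in all 6 AAI libraries, while PAF1 to CTR9 and CDK7 to CCNH are lowest in siB AAI.

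The 7SK complex, which holds P-TEFb inactive, had all 4 estimates above 0 with AAI in SCR cells, from 0.15 to 1.27, and 3 of 4 above 0 in siB cells, where that of MEPCE was below it. Over all genes tested 8798 of 14228 were above 0 in SCR cells and 8341 of 14928 in siB cells. In fits with other settings or 1 library fewer, the lowest SCR estimates were -0.31 for LARP7 and -0.08 for HEXIM2. The lowest siB estimate of LARP7 was -0.27. None of the 4 passed in SCR cells and HEXIM2 alone passed in siB cells. HEXIM1, its main inhibitory protein, read 58.3, 47.5 and 30.2 CPM in the SCR DMSO group and 188, 69.6 and 92.7 CPM with AAI, without overlap. It read 116, 104 and 89.2 CPM in the siB DMSO group and 180, 102 and 134 CPM with AAI, with overlap. HEXIM1 passed in no pairwise fit over all libraries without the block, passed for AAI in SCR cells with the block or with all 4 groups in the fit (adjusted p = 0.0182), and was set out in full after its values were seen. The AAI change was 1.27 (SE 0.40, adjusted p = 0.0839) in SCR cells, or 1.33 (adjusted p = 0.0295) without SCR DMSO replicate 2, and 0.39 (SE 0.19, adjusted p = 0.111) in siB cells. In DMSO the knockdown change was 1.21 (SE 0.26, adjusted p = 0.935), the highest of the 37, with every siB library above every SCR library.

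MEPCE, the enzyme that caps 7SK RNA, read 85.5, 157 and 83.7 CPM in the SCR DMSO group and 180, 204 and 167 CPM with AAI. It read 136, 153 and 149 CPM in the siB DMSO group and 116, 122 and 138 CPM with AAI. In AAI the siB libraries were all below the SCR libraries, and MEPCE fell with knockdown by 0.55 (SE 0.15, adjusted p = 0.0441). That call was lost without any 1 of SCR AAI replicates 2 and 3 or the siB AAI libraries (adjusted p from 0.0722 to 0.147). The AAI change was 0.81 (adjusted p = 0.107) in SCR cells and -0.22 (adjusted p = 0.109) in siB cells, with an interaction of -1.03 (SE 0.30, adjusted p = 0.133), or -1.33 (adjusted p = 0.0076) without SCR DMSO replicate 2.

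HEXIM2, at a low level, rose in siB cells. It read 4.96, 5.19 and 6.63 CPM in the siB DMSO group and 12.1, 8.31 and 8.15 CPM with AAI, a change of 0.66 (SE 0.20, adjusted p = 0.0189). In SCR cells it read 5.87, 8.85 and 5.0 CPM in DMSO and 10.2, 5.94 and 6.11 CPM in AAI, with overlap. LARP7, which stabilises 7SK RNA, was at 5.56 CPM in SCR DMSO replicate 2 and at 44 CPM in SCR DMSO replicate 1, a wide spread within 1 group, and passed in no comparison over all libraries without the block.

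In the super elongation complex, which carries P-TEFb to active genes, 4 of 7 genes were raised in siB cells, against 30.4% of all genes tested, and 1 was lowered, against 21.8%. None of the 7 passed in SCR cells, where 8.98% of all genes were raised, and none passed the interaction test of the difference. ELL2, an elongation factor subunit, read 15.5, 13.9 and 9.96 CPM in the SCR DMSO group and 17.4, 12.4 and 18.7 CPM with AAI. It read 8.12, 5.28 and 4.57 CPM in the siB DMSO group and 16.6, 13.2 and 12.3 CPM with AAI. The siB DMSO libraries were the lowest of the 12, and the other 3 groups overlapped. ELL2 rose with AAI in siB cells by 1.13 (SE 0.22, adjusted p = 0.0020), against 0.29 (SE 0.29, adjusted p = 0.562) in SCR cells. The knockdown change in DMSO was -1.03 (SE 0.28, adjusted p = 1, unadjusted p = 0.0081), with an interaction of 0.84 (SE 0.35, adjusted p = 0.318).

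ELL3 and ELL, paralogs of ELL2, also rose in siB cells. ELL3 read 2.05, 1.62 and 2.06 CPM in the siB DMSO group and 3.91, 3.28 and 3.32 CPM with AAI, a change of 0.63 (SE 0.17, adjusted p = 0.0112), after 3.65, 3.29 and 2.68 CPM in the SCR DMSO group and 5.41, 4.67 and 3.84 CPM with AAI. ELL3 overlaps PDIA3 and SERF2 on the opposite strand, at means of 359 and 234 CPM, so at a few CPM its count is uncertain. ELL read 21.1, 24.7 and 23.8 CPM in the siB DMSO group and 29.98, 36.4 and 42.0 CPM with AAI, a change of 0.61 (SE 0.15, adjusted p = 0.0081). In SCR cells ELL overlapped between 12.8, 28.0 and 20.2 CPM in DMSO and 20.3, 38.4 and 32.6 CPM in AAI.

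AFF4, the scaffold of the complex, read 139, 82.6 and 73.6 CPM in the siB DMSO group and 184, 160 and 145 CPM with AAI, and rose by 0.77 (SE 0.21, adjusted p = 0.0128). In SCR DMSO it read 195, 52.4 and 128 CPM, a range that held the whole SCR AAI group at 150, 115 and 161 CPM. Its paralog AFF1 was at -0.45 (adjusted p = 0.404) in SCR cells and -0.34 (adjusted p = 0.0625) in siB cells. Of the YEATS-domain readers, MLLT1 fell in siB cells by 0.43 (SE 0.12, adjusted p = 0.0118) and MLLT3 was at -0.47 (adjusted p = 0.0721).

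The PAF complex, which travels with the polymerase and promotes histone modification behind it, split in siB cells, with CTR9 and RTF1 raised and PAF1 lowered. PAF1 read 57.9, 79.1 and 47.1 CPM in the SCR DMSO group and 52.7, 36.9 and 45.2 CPM with AAI. It read 54.7, 51.4 and 54.8 CPM in the siB DMSO group and 32.8, 34.5 and 34.0 CPM with AAI. The siB AAI libraries were the lowest of the 12 and lay close together. PAF1 fell by 0.65 (SE 0.11, adjusted p = 9.66e-04) in siB cells, and in SCR cells the change was -0.42 (SE 0.27, adjusted p = 0.350). CTR9 rose by 0.59 (SE 0.19, adjusted p = 0.0269) and RTF1 by 0.44 (SE 0.13, adjusted p = 0.0209) in siB cells. Both of these calls were lost without siB AAI replicate 1 or 3, without siB DMSO replicate 2 or 3, and with all 4 groups in the fit.

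PAF1 relative to CTR9 within a library was 0.70 ± 0.37 (log2) in siB DMSO and -0.58 ± 0.19 in siB AAI, without overlap. In SCR cells it was 1.30 ± 1.46 in DMSO and 0.23 ± 0.30 in AAI, where SCR DMSO replicate 2 alone was at 2.97 and the groups overlapped. PAF1 shares its locus with SAMD4B (mean 146 CPM) and CTR9 with EIF4G2 (mean 756 CPM), each on the opposite strand, so both counts may hold other reads. LEO1 and CDC73 passed in no comparison without the block, with LEO1 between 3.29 and 16.5 CPM and CDC73 between 19.7 and 71.5 CPM over the 12 libraries. LEO1 also overlaps genes on the opposite strand, TMOD3 (mean 51.5 CPM) and MAPK6 (mean 56.4 CPM).

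CDK7, the kinase of TFIIH that acts at initiation and activates CDK9, was lowered in both comparisons that use the siB AAI libraries. It read 34.3, 19.5 and 26.4 CPM in the SCR DMSO group and 27.1, 22.7 and 31.6 CPM with AAI. It read 26.3, 21.6 and 25.4 CPM in the siB DMSO group and 17.1, 16.2 and 15.4 CPM with AAI. The siB AAI libraries were again the lowest of the 12. CDK7 fell by 0.56 (SE 0.14, adjusted p = 0.0079) with AAI in siB cells and by 0.70 (SE 0.19, adjusted p = 0.0353) with knockdown under AAI, values that share the siB AAI libraries. The knockdown call was lost without SCR AAI replicate 3 or any 1 siB AAI library (adjusted p from 0.0669 to 0.138). Its interaction was -0.60 (SE 0.30, adjusted p = 0.418).

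The partners of CDK7 did not pass. CCNH, cyclin H, was at 0.11 in SCR cells and -0.29 (adjusted p = 0.0842) in siB cells, and the assembly factor MNAT1 at 0.27 and 0.03. CDK7 relative to CCNH was 0.40 ± 0.36 (log2) in SCR DMSO, 0.32 ± 0.15 in SCR AAI, -0.06 ± 0.14 in siB DMSO and -0.35 ± 0.12 in siB AAI. CCNH overlaps RASA1 on the opposite strand, at a mean of 35.1 CPM, so the count of CCNH may hold reads of RASA1.

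Among the late elongation kinases CDK12, which supports transcription of long DNA repair genes, read 109, 61.6 and 119 CPM in the SCR DMSO group and 89.7, 112 and 150 CPM with AAI. It read 113, 92.0 and 85.5 CPM in the siB DMSO group and 73.8, 86.5 and 80.8 CPM with AAI. All siB AAI libraries were below all SCR AAI libraries, and the knockdown change under AAI was -0.51 (SE 0.19, adjusted p = 0.114), which passed with the replicate block (adjusted p = 0.0036) and without SCR AAI replicate 1 (-0.68, adjusted p = 0.0170). The p-values of the blocked fit may be too small in this comparison. CDK13 and the shared cyclin CCNK stood at 0.17 and -0.01 in that comparison and passed in none over all libraries. CCNK overlaps CCDC85C on the opposite strand, at a mean of 59.1 CPM, so its count may hold other reads.

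Of the factors that move with the polymerase, SUPT6H rose in siB cells. SUPT6H, the histone chaperone SPT6, read 213, 177 and 222 CPM in the SCR DMSO group and 298, 229 and 297 CPM with AAI. It read 259, 239 and 230 CPM in the siB DMSO group and 349, 299 and 313 CPM with AAI. Its groups did not overlap in any of the 4 comparisons, each time with the AAI or the siB group higher. For knockdown under AAI the gap was very small, between 298.21 CPM in SCR AAI replicate 1 and 298.78 CPM in siB AAI replicate 2. SUPT6H rose with AAI in siB cells by 0.40 (SE 0.10, adjusted p = 0.0092), while AAI in SCR cells gave 0.43 (SE 0.21, adjusted p = 0.238) and knockdown gave 0.23 (adjusted p = 0.409) under AAI and 0.26 (adjusted p = 1) in DMSO. The DSIF subunits SUPT5H and SUPT4H1 were at 0.28 and 0.27 in SCR cells and 0.14 and 0.25 in siB cells, short of the threshold.

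SSRP1, a subunit of the histone chaperone FACT, had the smallest estimates of the genes given in full. In SCR cells it read 228, 258 and 207 CPM with DMSO and 283, 195 and 264 CPM with AAI. In siB cells the values were 213, 210 and 209 CPM with DMSO and 208, 201 and 223 CPM with AAI. Its AAI change in siB cells had a 95% interval from -0.21 to 0.21. The FACT partner SUPT16H was at 84.1 CPM in SCR DMSO replicate 2 and at 306 CPM in SCR DMSO replicate 1, and its AAI change in SCR cells had a 95% interval from -1.12 to 1.14.

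TCEA2, a TFIIS gene whose product rescues backtracked polymerase, read 17.5, 22.6 and 9.67 CPM in the SCR DMSO group and 33.5, 25.6 and 20.1 CPM with AAI. It read 13.5, 20.3 and 17.6 CPM in the siB DMSO group and 41.5, 21.0 and 25.7 CPM with AAI. The siB groups were apart by a small gap, and TCEA2 rose there by 0.71 (SE 0.24, adjusted p = 0.0349), a call lost without 4 of the 6 libraries in turn. TCEA1 was at 0.33 (adjusted p = 0.128) in siB cells.

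The AAI changes of the 37 genes in SCR and in siB cells, which rest on separate libraries, had the same sign for 30 genes, 23 higher and 7 lower. For the other 7, the change was above 0 in SCR cells and below 0 in siB cells, and for none the reverse. The siB change was the lower value for 26 genes. Without SCR DMSO replicate 2 the signs were the same for 25 genes, with 5 above 0 in SCR cells only and 7 above 0 in siB cells only, and the siB change was the lower value for 20. Across the 37 genes Pearson's r was 0.764, or 0.608 without that library, a description in which genes are not independent and each arm shares its scaling. No gene of the 37 passed the limma interaction test, and voom called none, although BRD2, MEPCE, CDK9 and ELL2 had an unadjusted p under 0.05. So did 2032 of the 15325 genes tested. The background was 1.46% of 15325 genes called above 0 and 0.157% below 0. By sign 26 were below 0, or 20 with median-ratio size factors and also 20 without SCR DMSO replicate 2. Over the 15325 genes tested 8619 were below 0, or 7122 with median-ratio size factors and 6945 without SCR DMSO replicate 2. Without that library CDK9, MEPCE and NELFB passed below 0 together with BRD2, in a fit where the calls below 0 over all genes went from 24 to 512 (3.34%).

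**Figure D4:**
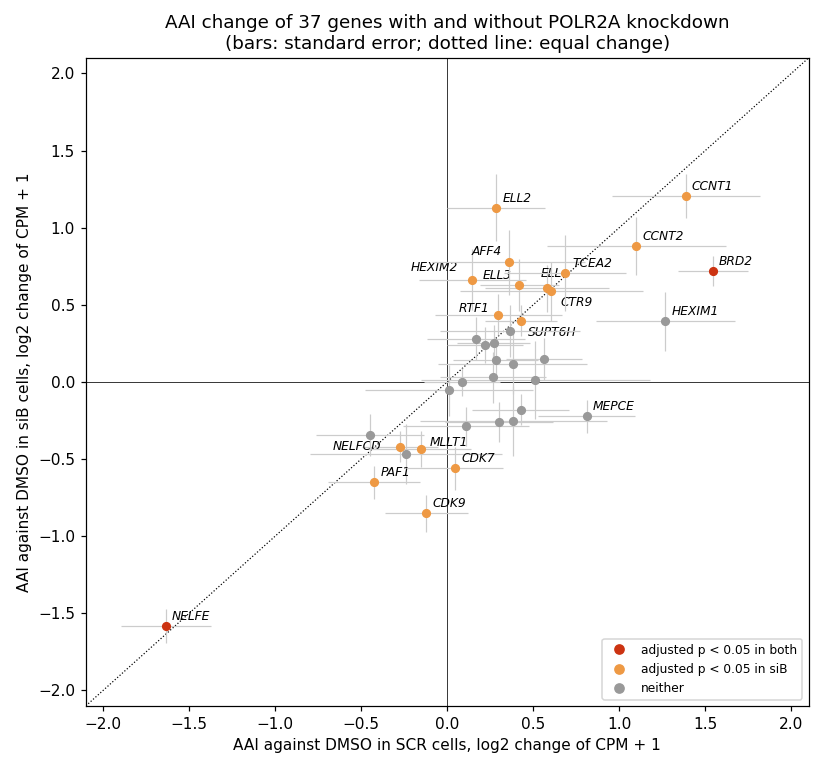
AAI change (log2 of CPM + 1) of the 37 genes in SCR cells (horizontal) against siB cells (vertical), with the standard error of each as grey bars, the dotted line at equal change, and colour for the genes with an adjusted p under 0.05. NELFE lies on the line at about -1.6 in both, BRD2 lies below it at 1.55 and 0.72, and CDK9, CDK7 and MEPCE are near or above 0 in SCR cells and below 0 in siB cells.

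Knockdown under AAI lowered 2 of the 37 genes, CDK7 and MEPCE, and raised none by limma or by voom, against 3.79% lowered and 5.49% raised of 14946 genes tested. The share lowered, 5.4%, was near that of all genes. Groups did not overlap for 8 genes downward (21.6%, against 15.8% of all genes) and 1 upward (2.7%, against 15.1%). An unadjusted p under 0.05 was found for 7 of the 37 and for 3814 of the 14946 genes tested. With the replicate block, which the rule on replicate numbers given below allowed, 9 genes were lowered (BRD2, CDK12, CDK7, CDK9, LARP7, LEO1, MEPCE, NELFB and PAF1) and CTR9 was raised. In the same blocked fit the calls over all genes went from 820 raised and 567 lowered to 2268 and 2057. Its lowest adjusted p over all genes was 2.09e-40, against 5.82e-04 without the block. For a fit of 6 libraries that value is extreme, so the p-values of this blocked fit may be too small. Leaving out 1 library gave between 0 and 4 lowered genes, with 0 without SCR AAI replicate 3 or any 1 siB AAI library, and 4 without SCR AAI replicate 1, where HEXIM1 also passed as raised (0.74, adjusted p = 0.0204). Over all genes 0.415% were lowered without SCR AAI replicate 3, and 1.95%, 1.24% and 1.18% without siB AAI replicates 1, 2 and 3. Without SCR AAI replicate 1 it was 5.34%, with 8.74% raised.

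Knockdown in DMSO moved none of the 37 past the threshold, and limma called 0% of 13606 genes in either direction (0% raised and 0% lowered). Before adjustment 644 genes of the table and 4 of the 37 had p under 0.05, the 4 being HEXIM1, ELL2, ELL3 and BRD2. Without SCR DMSO replicate 2 the count over the table was 2754, with a lowest adjusted p of 0.0535 and still none called. With voom on the recovered reads the count was also 0, and with all 4 groups in the fit 5 genes of the table were raised and 1 lowered, none of them among the 37. Groups did not overlap for 3 of the 37 upward (8.1%, against 8.28% of all genes) and 2 downward (5.4%, against 3.64%). The upward genes were HEXIM1, BRD2 and SUPT6H, and the downward ones ELL2 and ELL3.

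The changes were also set out by gene span, since the study examined gene length. Of the 37, 15 had spans under 30 kb, 16 from 30 to 100 kb and 6 over 100 kb. Their median AAI change in SCR cells was 0.42, 0.33 and 0.22 in that order, against 0.21, 0.25 and -0.09 over all genes tested with a span. Without SCR DMSO replicate 2 the medians of the 37 were 0.39, 0.05 and -0.08, against 0.21, 0.07 and -0.37. In siB cells it was 0.01, 0.28 and -0.12, against 0.05, 0.18 and -0.03. Both NELFE (lowered) and BRD2 and CCNT1 (higher in AAI) are under 30 kb, and that class ran from -1.63 to 1.55 in SCR cells. None of the 6 genes over 100 kb (AFF1, MLLT3, CDC73, MNAT1, CDK12 and CDK13) passed in either AAI comparison in the main fit. The share called among all genes of that span was not counted. AFF1 passed as lowered in SCR cells without SCR DMSO replicate 2 (-0.77, adjusted p = 0.0336). In siB cells AFF1, MLLT3 and CDK12 passed as lowered with median-ratio size factors, AFF1 and MLLT3 also in other fits. CDK13 passed there as raised without siB DMSO replicate 1 (0.41, adjusted p = 0.0119).

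A further 28 genes of elongation, taken from a list of cofactors outside the 37, were read beside them. With AAI in SCR cells 2 of 28 (7.14%) were raised and none lowered, against 8.98% and 3.36% of all genes tested. These were ELOA, a subunit of the elongin complex (0.79, SE 0.20, adjusted p = 0.0413), and DOT1L, the H3K79 methyltransferase (0.80, SE 0.19, adjusted p = 0.0323). With AAI in siB cells 12 of 28 (42.9%) were raised and 3 (10.7%) lowered, against 30.4% and 21.8% of all genes. Past 2-fold, as were 13.9% of all genes upward and 5.79% downward, were JMJD6, a JmjC-domain hydroxylase (1.99, SE 0.17, adjusted p = 2.40e-05), ELOA (1.17), ZC3H8 (1.19) and SPTY2D1 (1.14) upward, and TCEA3, the third TFIIS gene (-1.15, SE 0.15, adjusted p = 2.08e-04), downward. Neither knockdown comparison called any of the 28 by limma, of which 5 under AAI and 0 in DMSO had an unadjusted p under 0.05. Over all genes tested these were 3814 of 14946 under AAI and 644 of 13606 in DMSO.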

How the data were processed

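Total RNA from HK-2 cells was enriched for poly-A RNA, and libraries were sequenced in paired-end mode. The methods of the study state alignment by the authors to hg38, the build that the submitters' processing notes also name, and gene-level counting on BioJupies with a UCSC annotation. The aligner and the use of strand are not given in the sources used here. The authors deposited 1 table of log10 values, log10(CPM + 1), for 35238 genes, of which 28 had names turned into dates and are not named. No scaling beyond CPM was found, and 7627 genes were at 0 in all 12 libraries. Values were turned back into CPM, and at a tolerance of 0.05 reads 100% of them were whole reads, which gave the depth.

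Sample titles gave the groups. A treatment field in the labels reads DMSO throughout, also for samples titled AAI. Column letters A and D were read as AAI and DMSO. Each pair of groups was fitted alone in R 4.3.3 with limma 3.58.1 (trend) on log2(CPM + 1), over genes at 1 CPM or more in at least 3 libraries, and called at an adjusted p (Benjamini-Hochberg) under 0.05. No fold limit was set, and the 2-fold limit of the study was an alternative. The interaction used all 12 libraries. The fit was tested on simulated data with known changes.

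The 37 genes, the further 28 and the tests were chosen with earlier results of these data known. Values in every library are given for the 14 genes with the largest change among those called, for 1 gene of each complex and for POLR2A, with HEXIM1 and SKIC2 added after their values were seen. Spans, exon lengths and overlaps came from GENCODE release 44, matched by symbol, and promoters from RefSeq.

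To check the replicate numbers, each library's deviation from its group mean was correlated over 15325 genes with that of the library of the same number. Both AAI in SCR cells (0.42, 0.47, 0.34) and knockdown under AAI (0.61, 0.32, 0.29) had every correlation above 0.1, the rule for reading the numbers as pairs. Some libraries of different numbers were above 0.1 too, at 0.159 for AAI in SCR cells and at 0.224 and 0.215 for knockdown under AAI. The labels do not say what a number stands for, so the pairing is not certain. For AAI in siB cells (0.21, 0.03, 0.20) and knockdown in DMSO (0.73, 0.59, -0.19) the rule was not met. The fits were also repeated with median-ratio size factors, without AC010970.2, over all 4 groups, by voom on recovered reads, without the trend, with a pseudocount of 0.1, on unfiltered genes, on genes with a mean of 5 CPM or more, and without each library in turn. The result for genes with date names was not analysed here. Of the further 28 genes, values are given for those called with AAI in SCR cells and those past 2-fold with AAI in siB cells.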

Additional observations from a re-analysis of the deposited data

Results flagged for a closer look

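BRD2 moved in opposite directions with POLR2A knockdown in the 2 treatments. Its knockdown change on the log2(CPM + 1) scale was 0.31 in DMSO, where all 3 siB libraries were above all 3 SCR libraries, and -0.52 under AAI, where all 3 were below. Neither change alone passed limma's adjusted threshold (adjusted p = 1 and 0.0728). The interaction, which tests the difference, was -0.83 (SE 0.19, unadjusted p = 0.0011, adjusted p = 0.0587 by limma). Over 20 alternatives it ran from -0.95 to -0.72, with adjusted p from 0.0223 to 0.213.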

How the results depend on the processing

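None of the changes of called genes, recomputed under each alternative, reversed its direction. Of the counts of raised and lowered genes, 142 recomputed values stayed within 1.5 times the original and 28 did not. For AAI in SCR cells the raised count of 1 became 5 with all 4 groups in the fit and 4 with the replicate block, and ranged from 1 to 7 without 1 library (lowered, 1 to 2). Over all genes 18.1% were raised with all 4 groups, 14.7% with the block and 5.4% to 13.5% without 1 library. For AAI in siB cells the raised count of 12 became 4 with all 4 groups and 2 with the 2-fold limit, and 7 to 13 without 1 library. The lowered count of 6 became 10 with median-ratio size factors, 3 with all 4 groups and 1 with the 2-fold limit, and 5 to 7 without 1 library. For knockdown under AAI the lowered count of 2 became 0 with no filter or the 2-fold limit, 1 with a mean CPM of at least 5, all 4 groups or no trend, 9 with the replicate block, and 0 to 4 without 1 library, while the raised count of 0 became 1 with the block and 0 to 1 without 1 library. Over all genes 1.33% were lowered with no filter, 3.76% with a mean CPM of at least 5, 2.46% with all 4 groups and 3.7% with no trend. With the block, whose p-values may be too small here, 13.8% were lowered. For the interaction below 0 the count of 0 became 1 without AC010970.2 or with the block, and 0 to 4 without 1 library. Over all genes 0.247% were called below 0 without AC010970.2 and 0.666% with the block. The cause of these shifts was not tested.

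Where the replicate numbers did not meet the rule for pairs, the replicate block gave 14 raised and 8 lowered for AAI in siB cells (adding HEXIM1, TCEA1, AFF1 and MLLT3) and 0 for knockdown in DMSO. Over all genes tested these fits called 34% raised and 23.6% lowered in siB cells, and none for knockdown in DMSO. No other call of the 37 genes changed with the block than those named here and in the report. For single genes, 461 recomputed values kept their side of the threshold, 20 crossed it upward and 63 downward. Depth was no limit for the 37 genes, whose lowest value in any library, 1.62 CPM for ELL3, was above the 0.189 CPM that 0 reads allow in the shallowest library. The spread between 3 libraries was, since the 95% interval of the AAI change of LARP7 in SCR cells ran from -1.02 to 2.04.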
